A study of Homo sapiens with 19 samples.

Results

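The genes described here are 9 target genes of the transcription factor p53: CDKN1A, MDM2, BBC3, TP53I3, FAS, SESN1, BTG2, ZMAT3 and RRM2B. They were chosen by name from a list, and all 9 had reads, out of 22760 genes with reads in the series. Spliced RNA was read as counts of sequencing reads that crossed splice junctions in 19 libraries of ribosomal RNA-depleted RNA from 3 human cell lines. The level of a gene is its reads over annotated introns (GENCODE 29, genome build hg38) per 1000000 junction reads of the library, written CPM. HUES66, a human embryonic stem cell line, gave 14 libraries from cultures treated with 1 ug/ml doxycycline for 24, 48 or 96 hr. They comprised 3 control libraries (genotype WT), 3 libraries of RBFOX2 total knockdown, 4 of RBFOX2 N-short knockdown and 4 of RBFOX2 N-long knockdown (total KD, N-short KD and N-long KD). RBFOX2 is an RNA-binding regulator of splicing, and the tool, by the title of the series, was Cas13d, an RNA-guided enzyme that cuts RNA. Doxycycline was shared by all 14 libraries, so none of them is an untreated culture. The 14 libraries fall into 4 sets: 24 hr replicate 1 (total, N-short and N-long KD, no control), 24 hr replicate 2 (control, N-short and N-long KD), 48 hr and 96 hr (control and all 3 knockdowns, 1 library each). The remaining 5 libraries were 1 each of wild-type HUES66, HEK293 (a line made from embryonic kidney cells with adenovirus DNA) and total, nuclear and cytoplasmic RNA of A375, a melanoma line. No doxycycline dose is given for these 5. The wild-type HUES66 library carries the control name of the 24 hr replicate 1 series, so whether it was treated is not known here. HUES66 was grown in StemFlex on Geltrex, and A375 and HEK293 in DMEM with serum, so cell line and medium cannot be told apart. No label says that replicate libraries came from separate cultures, so p-values measure the spread between these libraries, which may be technical.

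p53 is a DNA-binding factor that is kept scarce by MDM2, a ubiquitin ligase that marks it for destruction. DNA damage and other stresses release p53 from MDM2, and it then switches on genes that stop the cell cycle, repair DNA, change metabolism or kill the cell. MDM2 is itself one of those genes, which closes a feedback loop. Human embryonic stem cells are known for little p21, the product of CDKN1A, and for a readiness to die after DNA damage.

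Libraries held 6499183 to 27937149 junction reads, of which 96.7% to 98.3% lay on annotated introns. RBFOX2, the targeted gene, was measured at 126, 122 and 119 CPM in the controls (24 hr replicate 2, 48 hr and 96 hr) and 120 CPM in wild-type HUES66. It was measured at 48.2, 78.7 and 75.8 CPM in total KD (24 hr replicate 1, 48 hr and 96 hr), below every control. The N-long KD libraries had 73.8, 72.7, 87.6 and 80.4 CPM (24 hr replicates 1 and 2, 48 hr, 96 hr), also below every control, and the N-short KD libraries had 109, 116, 120 and 107 CPM, which overlapped the controls. The gene sum does not check the N-short isoform, whose own junctions were not examined here. RBFOX2 was at 78.2, 59.7 and 90.7 CPM in total, nuclear and cytoplasmic A375 RNA and at 98.1 CPM in HEK293. Summed over 10 pluripotent stem cell markers, HUES66 libraries held 3218 to 4940 CPM, A375 9.99 CPM and HEK293 47.7 CPM. Melanocyte markers summed to 267 CPM in A375, 50.6 CPM in wild-type HUES66 and 17.6 CPM in HEK293. Of these, PMEL was at 0.476 CPM in A375 and 47.9 CPM in wild-type HUES66, while SOX10 and MITF, regulators of the melanocyte lineage, were at 100.3 and 39.0 CPM in A375.

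Per intron of 1 reference transcript, a scale that allows genes to be set side by side, the order of levels in the 14 doxycycline-treated libraries ran from MDM2 to FAS. MDM2 was at 11.6 ± 1.55 CPM per intron (SD, n = 14 libraries) and RRM2B, which encodes a small subunit of ribonucleotide reductase, at 6.63 ± 2.47. TP53I3, which encodes a quinone oxidoreductase, was at 4.41 ± 1.39 CPM per intron. SESN1, which encodes a sestrin that restrains mTORC1, was at 3.19 ± 0.780. ZMAT3, which encodes a zinc finger RNA-binding protein, was at 1.45 ± 0.705 CPM per intron, and BTG2, an antiproliferative gene with 1 intron, at 1.08 ± 0.643. CDKN1A was at 0.739 ± 0.510, BBC3, which encodes the cell death protein PUMA, at 0.467 ± 0.214, and FAS, which encodes a death receptor, at 0.303 ± 0.0972 CPM per intron. Apart from MDM2 over RRM2B and SESN1 over ZMAT3, neighbours in this order differed by less than the sum of their SDs, and part of that spread follows the library sets. In A375 CDKN1A stood second, at 14.5 CPM per intron after MDM2 at 37.4, and in HEK293 it also stood second, at 5.66 after MDM2 at 20.0. Counts behind CDKN1A, BTG2, BBC3 and FAS in the doxycycline-treated libraries were small (13 to 91, 5 to 32, 6 to 36 and 18 to 52 reads per library), and the precision of their levels is limited accordingly.

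The first comparison asked how the p53 target genes differed with time under doxycycline. Of the 9 genes, 6 fell from 48 to 96 hr (CDKN1A, BTG2, ZMAT3, RRM2B, SESN1 and MDM2), 1 rose (TP53I3), and BBC3 and FAS did not pass the threshold of an adjusted p of 0.05. Across all genes 59.2% passed (29.9% lower and 29.2% higher), so a call alone is common in this comparison. The median log2 change of the 9 genes was -0.64, against -0.01 over all 13415 genes tested. Each time is 1 library set, so time and everything else that differed between those cultures and library preparations cannot be told apart, and in bulk RNA neither can fewer cells of a type and less RNA per cell. The p-values of this comparison measure the spread within library sets, and not the spread between sets of the same time.

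Of the 2 members that act on the cell cycle, CDKN1A encodes p21, an inhibitor of cyclin-dependent kinases, and lies on chromosome 6 at 36676460 to 36687339 (plus strand). CDKN1A measured 5.41, 4.79, 5.86 and 6.64 CPM at 48 hr (control, total KD, N-short KD, N-long KD) and 1.13, 2.63, 1.83 and 1.81 CPM at 96 hr. At 24 hr it ranged from 1.15 to 2.27 CPM over 6 libraries, so all 4 of the 48 hr libraries lay above all other doxycycline-treated libraries, and wild-type HUES66 was at 1.25 CPM. The log2 change from 48 to 96 hr was -1.58 (SE 0.20, adjusted p = 2.63e-07). BTG2 (chromosome 1, 203305491 to 203309602, plus strand) encodes a protein that recruits the machinery that shortens poly(A) tails. It measured 1.72, 1.18, 2.21 and 2.34 CPM at 48 hr and 0.601, 0.454, 0.436 and 0.907 CPM at 96 hr. The sets at 48 and 96 hr did not overlap, but 24 hr libraries reached 1.50 CPM, above the total KD library of 48 hr. BTG2 changed by -1.56 (SE 0.32, adjusted p = 0.000185) on the log2 scale.

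**Figure D1:**
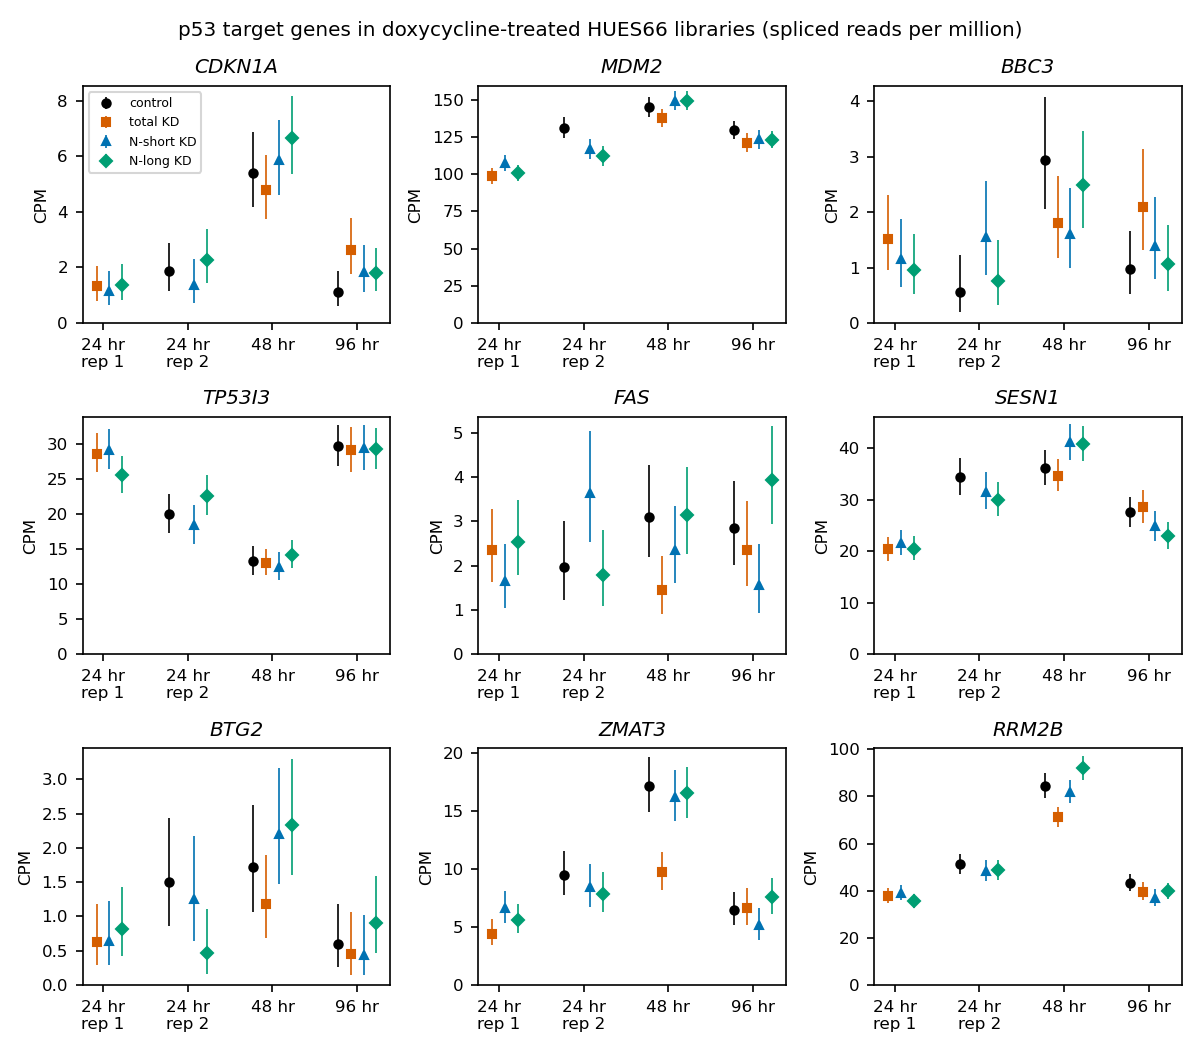
Level of each of the 9 genes (y axis, CPM from 0, that is spliced reads per 1000000 junction reads) in the 14 doxycycline-treated HUES66 libraries by library set (x axis); symbols mark the knockdown and bars the 95% exact Poisson interval, which covers counting error only. CDKN1A, MDM2, SESN1, ZMAT3 and RRM2B are higher in all 4 of the 48 hr libraries than in the other 10, and TP53I3 is lower.

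RRM2B, ZMAT3 and SESN1 act in nucleotide supply, RNA control and growth signalling. RRM2B (chromosome 8, 102204502 to 102239118, minus strand), whose product makes deoxynucleotides outside S phase, measured 84.4, 71.2, 82.0 and 92.1 CPM at 48 hr and 43.4, 39.6, 37.0 and 39.7 CPM at 96 hr. Its 24 hr libraries split by set, with 35.6 to 39.1 CPM in replicate 1 and 48.4 to 51.2 CPM in replicate 2, all below the 48 hr libraries. RRM2B fell by 0.99 on the log2 scale (SE 0.058, adjusted p = 2.32e-13). ZMAT3 (chromosome 3, 179017223 to 179072279, minus strand) measured 17.1, 9.72, 16.2 and 16.5 CPM at 48 hr and 6.46, 6.63, 5.15 and 7.56 CPM at 96 hr. The total KD library was the low one at 48 hr, yet all 4 still lay above the 24 hr (4.43 to 9.47 CPM) and 96 hr libraries. ZMAT3 fell by 1.14 (SE 0.13, adjusted p = 3.97e-08). SESN1 (chromosome 6, 108986437 to 109094819, minus strand) measured 36.2, 34.7, 41.2 and 40.8 CPM at 48 hr and 27.6, 28.5, 24.9 and 22.9 CPM at 96 hr. Its 24 hr replicate 2 libraries (30.01 to 34.4 CPM) came close to the lowest 48 hr library, and those of replicate 1 (20.4 to 21.6 CPM) did not. SESN1 fell by 0.50 (SE 0.079, adjusted p = 5.40e-06). The 24 hr sets, which share a time, had SESN1 means of 20.8 (replicate 1) and 32.0 CPM (replicate 2). The means were 38.2 CPM at 48 hr and 26.0 CPM at 96 hr, so sets of the same time differed by as much.

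MDM2 (chromosome 12, 68808176 to 68850686, plus strand) showed the smallest difference among the 6 genes that fell. It measured 145, 138, 149 and 149 CPM at 48 hr and 130, 121, 123 and 123 CPM at 96 hr. The 24 hr libraries ranged from 98.7 CPM (total KD, replicate 1) to 131 CPM (control, replicate 2), below every 48 hr library. The log2 change from 48 to 96 hr was -0.17 (SE 0.037, adjusted p = 0.000319). The MDM2 means of the 24 hr sets were 102 (replicate 1) and 120 CPM (replicate 2), beside 145 CPM at 48 hr and 124 CPM at 96 hr. A difference of similar size thus occurred between sets of the same time.

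The 3 members tied to cell death or oxidative stress did not move together. TP53I3 (chromosome 2, 24077433 to 24085861, minus strand) measured 13.3, 13.1, 12.5 and 14.2 CPM at 48 hr and 29.7, 29.2, 29.4 and 29.3 CPM at 96 hr. The 24 hr libraries ranged from 18.4 to 29.2 CPM, so the 48 hr libraries were the 4 lowest of 14, the reverse of the order seen in CDKN1A or RRM2B. TP53I3 rose by 1.20 on the log2 scale (SE 0.076, adjusted p = 9.83e-13). BBC3 (chromosome 19, 47220822 to 47232766, minus strand) measured 2.95, 1.81, 1.60 and 2.48 CPM at 48 hr and 0.976, 2.09, 1.40 and 1.06 CPM at 96 hr. The ranges overlapped through the total KD library of 96 hr, and the log2 change was -0.64 (SE 0.28, adjusted p = 0.0574). BBC3 passed without the total KD library of 48 hr or of 96 hr, and its adjusted p was 0.397 without the control library of 48 hr. FAS (chromosome 10, 88990582 to 89015785, plus strand) measured 3.11, 1.46, 2.36 and 3.14 CPM at 48 hr and 2.85, 2.36, 1.57 and 3.93 CPM at 96 hr. These ranges overlapped throughout, with a log2 change of 0.14 (SE 0.22, adjusted p = 0.586). The other 7 calls held in every alternative run for this comparison.

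All 4 of the 48 hr libraries lay above the 10 libraries of 24 and 96 hr in 5 of the 9 genes (CDKN1A, MDM2, SESN1, ZMAT3 and RRM2B), against 14.1% of all 13628 genes tested. They lay below in 1 of 9, TP53I3, against 8.72% of all genes. Of 35 other p53 target genes tested, 18 had all 48 hr libraries above and 0 below. Those 18 included the p53-controlled DNA repair genes DDB2 and XPC, the cell death genes BAX, PMAIP1 and TNFRSF10B, and the cell cycle genes CCNG1, GADD45A and PLK2. Of 16 genes for p53 and its regulators, 0 lay above and 6 below, TP53BP1 and USP7 among them. Marker levels also differed between the sets. Fibroblast or feeder markers (6 genes) summed to 686 to 743 CPM at 48 hr, above the 496 to 584 CPM at 24 hr and 487 to 560 CPM at 96 hr. These sums were carried by COL1A1, COL1A2 and THY1, while COL3A1, DCN and LUM did not exceed 0.573 CPM in any HUES66 library. COL1A2 and THY1 had all 48 hr libraries above the other 10, and COL1A1 (200 to 231 CPM at 48 hr) reached 221 CPM at 96 hr. Pluripotency markers summed to 3636 to 3802 CPM at 48 hr, 3218 to 4118 CPM at 24 hr and 4145 to 4940 CPM at 96 hr. At 48 hr DNMT3B (1086 to 1286 CPM) and POU5F1 gave similar parts of that sum, and DNMT3B was higher at 96 hr (1727 to 2341 CPM). POU5F1, NANOG and DPPA4, 3 of the 10 markers, had all 48 hr libraries above the other 10, with POU5F1 at 1082 to 1219 CPM against 1037 to 1081 CPM at 96 hr, and ZFP42 had them all below. Germ layer markers overlapped between the times (24.4 to 36.1, 29.8 to 33.4 and 32.7 to 36.3 CPM). That sum was carried by NES (23.7 to 35.1 CPM in the doxycycline-treated libraries), and no other gene in it exceeded 1.36 CPM there. Melanocyte or melanoma markers summed to 65.7 to 70.8 CPM at 48 hr, 46.9 to 72.1 CPM at 24 hr and 37.1 to 44.5 CPM at 96 hr, and PMEL gave 62.7 to 67.7 CPM of the 48 hr sums. Their part in the 48 hr levels was not tested.

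**Figure D2:**
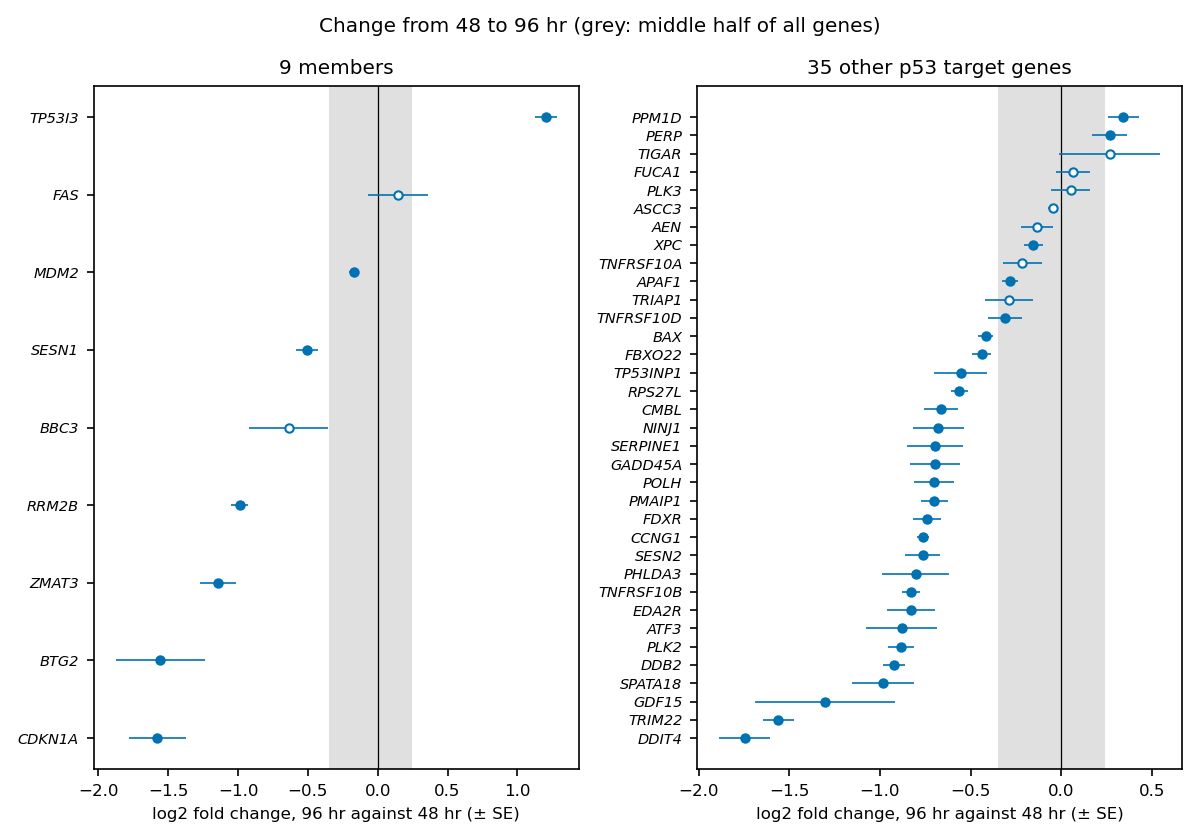
Log2 fold change from 48 to 96 hr (x axis, point with SE; filled points passed an adjusted p of 0.05) for the 9 genes and for 35 other p53 target genes, 1 gene per line; the grey band is the interquartile range of all genes. Of the 9 genes 6 lie below 0 as filled points and TP53I3 alone lies above as one; of the other targets 26 fell and 2 rose.

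Among the 35 other p53 target genes, 26 fell and 2 rose from 48 to 96 hr (74.3% and 5.71%), with a median log2 change of -0.68. Over all genes 29.9% fell and 29.2% rose. DDIT4, which encodes an inhibitor of mTORC1, changed by -1.75, and TRIM22, an interferon and p53 target, by -1.56. DDB2, which recognises damaged DNA, changed by -0.92, the kinase gene PLK2 by -0.88, and the death receptor gene TNFRSF10B by -0.83. CCNG1, which encodes cyclin G1, changed by -0.76, RPS27L by -0.56 and BAX by -0.42. Of 16 genes for p53 and its regulators, 9 rose and 4 fell. TP53BP1, whose product gathers at DNA breaks, changed by 0.74, DAXX by 0.53, and USP7, a deubiquitinase of p53 and MDM2, by 0.38. The acetyltransferase genes CREBBP and EP300 changed by 0.43 and 0.33, RPL5, whose product binds MDM2, by -0.13 and CHEK2 by -0.18. Of 20 cell cycle genes that p53 is known to lower through p21 and the DREAM repressor complex, 11 rose and 4 fell (median 0.08), with MCM5 at 0.69, CDC20 at 0.48 and CCNA2 at 0.39 against CDK1 at -0.37 and CKS1B at -0.31. Of 23 partners and relatives of the 9 genes, 7 rose and 5 fell (30.4% and 21.7%, beside 29.2% and 29.9% of all genes). RRM2, the subunit that RRM2B can replace, changed by 0.94, and RRM1, the partner of both, by 0.16. CDK4 changed by 0.66, CCNE1 by 0.49 and PCNA by 0.24, all partners of p21, and SESN3, a relative of SESN1, by -0.56.

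The second comparison asked whether knockdown of RBFOX2 or of its N-short or N-long isoforms changed the p53 target genes. None of the 9 genes passed in any of the 3 knockdowns against control (0 of 9 in each). Over all genes the share that passed was 2.2% for total KD, 0.0% for N-short KD and 0.022% for N-long KD. At an unadjusted p under 0.05 the counts were 3 of 9, 0 of 9 and 0 of 9, against 13.0%, 3.94% and 4.36% of all genes. The contrasts between knockdowns also gave 0 of 9, in total KD relative to N-long KD (2.01% of all genes passed) and in N-long KD relative to N-short KD (0.0147%), with 1 of 9 and 0 of 9 at an unadjusted p under 0.05 (11.7% and 5.09% of all genes). DESeq2 in place of edgeR also called 0 of 9 in each of the 5 contrasts.

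ZMAT3 came closest to the threshold. It measured 4.43, 9.72 and 6.63 CPM in total KD (24 hr replicate 1, 48 hr, 96 hr) and 9.47, 17.1 and 6.46 CPM in control (24 hr replicate 2, 48 hr, 96 hr). Total KD was the lowest library of its set at 24 and 48 hr, while at 96 hr it lay between the other libraries. Its log2 change against control was -0.54 (SE 0.16, adjusted p = 0.0698), and against N-long KD it was -0.47 (SE 0.15, adjusted p = 0.108). Without the total KD library of 96 hr the change against control was -0.77 (adjusted p = 0.0054). With no filter on low counts the adjusted p was 0.0159, and with the wild-type library as a control of 24 hr replicate 1 it was 0.0337. MDM2 differed by -0.14 (SE 0.049, adjusted p = 0.152) in total KD and RRM2B by -0.18 (SE 0.074, adjusted p = 0.257). RRM2B at 48 hr was lowest in total KD, at 71.2 CPM against 82.0 to 92.1 CPM in the other 3 libraries.

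The remaining members had wide errors or small differences in total KD. BTG2 differed by -0.64 (SE 0.43) and FAS by -0.36 (SE 0.32), CDKN1A by 0.21 (SE 0.26) and BBC3 by 0.24 (SE 0.36), SESN1 by -0.07 (SE 0.092) and TP53I3 by 0.00078 (SE 0.095). The 4 widest errors belonged to the 4 genes with the fewest reads, BTG2, BBC3, FAS and CDKN1A. In N-short KD the log2 differences from control ranged from -0.21 (FAS, SE 0.29) to 0.12 (CDKN1A, SE 0.24), and in N-long KD from -0.09 (MDM2, SE 0.044) to 0.36 (CDKN1A, SE 0.23). The median of the 9 genes was -0.14, -0.06 and -0.04 in the 3 knockdowns, which share their controls, beside -0.0002, -0.0026 and 0.00003 over all genes.

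**Figure D3:**
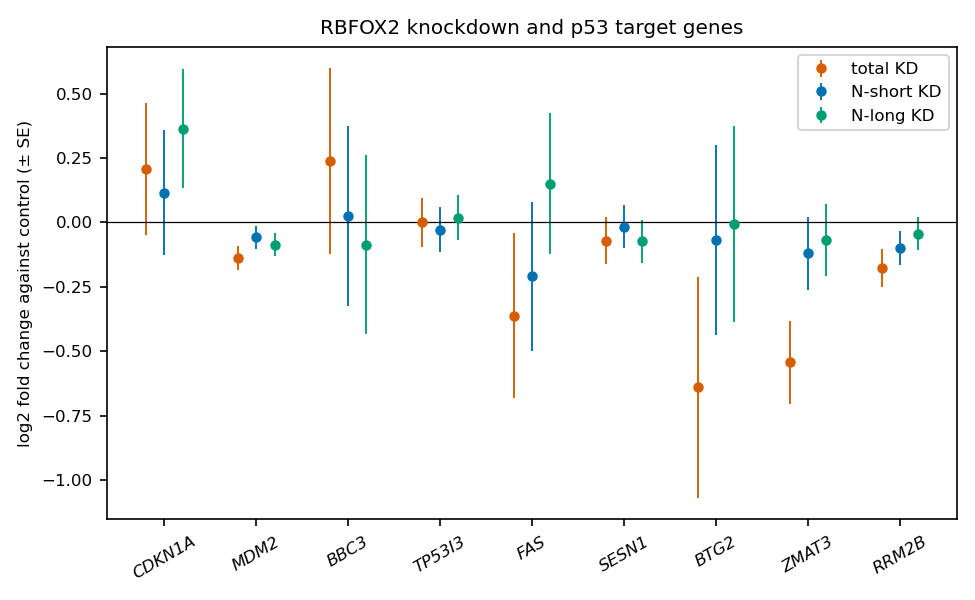
Log2 fold change against control (y axis, point with SE) of the 9 genes (x axis) in total KD, N-short KD and N-long KD, from a fit over 14 libraries with a term for library set. No point passed an adjusted p of 0.05; ZMAT3 in total KD, at -0.54, came closest.

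Other genes of the pathway were called in total KD in both directions. Of the 35 other p53 target genes 3 rose, DDIT4 by 1.66 (SE 0.19, adjusted p = 1.87e-07), SESN2 by 0.74 (SE 0.14, adjusted p = 0.0017) and ATF3 by 1.02 (SE 0.24, adjusted p = 0.0126). All 3 are also in a list of genes driven by ATF4, a factor of the amino acid response, of which 11 of 13 rose with a median log2 change of 1.07. The other 8 of these genes, not in the list of other p53 target genes, included CHAC1 at 1.86 and STC2 at 1.71. Which factor raised the 3 shared genes was not tested. Another 4 of the other p53 target genes fell: TRIM22 by 0.54, RPS27L by 0.22, ASCC3 by 0.20 and CCNG1 by 0.17 on the log2 scale. Of the 16 regulators, the DNA damage kinase genes PRKDC (-0.27) and ATM (-0.15) fell (12.5%). Of the 20 cell cycle genes MKI67 (-0.21) and TOP2A (-0.13) fell (10.0%). The 35 other p53 target genes had 8.57% higher and 11.4% lower, and the ATF4 list 84.6% higher. Over all genes 2.2% passed in total KD, in both directions together. None of the 23 partners passed, and none of these lists had a call in N-short KD or N-long KD.

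The splice junctions of the 9 genes were also tested by knockdown. Of 45 member junctions, 0 passed in any of the 5 contrasts (0.448%, 0.0113% and 0.0427% of all 124164 junctions passed in total KD, N-short KD and N-long KD against control, 0.0298% in N-long relative to N-short KD and 0.395% in total relative to N-long KD). Of 11 shares of a junction among those into the same acceptor, 0 passed (0.766%, 0.0319%, 0.311%, 0.255% and 0.279% of all shares, in the same order). Of 3 optional MDM2 exons, 0 passed (1.4%, 0.0161%, 0.611%, 0.434% and 0.531% of all cassette exons). Tested with limma on log ratios, 11, 1, 1, 0 and 1 of all shares and 14, 0, 0, 0 and 1 of all cassette exons passed in the same order, again with 0 member values. At an unadjusted p under 0.05 there were 7, 3, 4, 1 and 7 of the 45 junctions in the same order (7.81%, 4.58%, 4.8%, 4.82% and 7.3% of all junctions), 0, 1, 0, 0 and 0 of the 11 shares (6.48%, 4.07%, 5.0%, 4.56% and 5.75% of all shares) and 0 of the 3 exons each time (7.78%, 4.23%, 5.48%, 5.11% and 5.97% of all exons). The 7 junctions in total KD were all lower than control and belonged to MDM2, ZMAT3, SESN1 and RRM2B. In N-long KD the junction from the upstream first exon of MDM2 differed by -0.33 (SE 0.15, adjusted p = 0.999) and the CDKN1A junction at 36684547 to 36685750 by 0.54 (SE 0.23, adjusted p = 0.999). The MDM2 junction with the lowest p was the first of the transcript MDM2-214, an intron of 101 nt at chromosome 12, 68843833 to 68843933. Its reads were 0, 12 and 0 in the controls (24 hr replicate 2, 48 hr, 96 hr), 6, 12, 26 and 15 in N-long KD and 12, 8, 19 and 11 in N-short KD (24 hr replicates 1 and 2, 48 hr, 96 hr), and 5, 21 and 0 in total KD. The junction was also read without knockdown, with 17 reads in wild-type HUES66 (the deepest library), 11 in total A375 RNA and 9 in HEK293. In each of the 3 sets with a control, N-short and N-long KD had more reads than that control (the 48 hr control was the lowest of 4), and total KD had more at 48 hr and none at 96 hr, without scaling for depth. The fit gave log2 changes of 1.96 (SE 0.47, adjusted p = 0.109) for N-long KD and 1.83 (SE 0.49, adjusted p = 0.741) for N-short KD. It passed in all 3 knockdowns without the control of 48 hr, where the 2 remaining controls have no reads, and in N-long KD without the N-long KD library of 24 hr replicate 1 (adjusted p = 0.0394). In the authors' deposited tables, which compare each knockdown with control at each time by rMATS, the 9 genes had 17 to 34 splicing events per table and 0 with an adjusted p under 0.05. Of all 45022 to 57221 events per table, 1 to 57 passed (0.00218% to 0.125%) in the authors' deposited tables. The lowest adjusted p of a member event in the authors' deposited tables was 0.34, for N-short KD at 48 hr.

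MDM2 is read from an upstream first exon (P1) or from a first exon inside the first intron (P2), and the P2 promoter is known as the one that p53 binds. Both first exons splice to the same acceptor, at 68809208 on chromosome 12, so the reads of the introns 68808492 to 68809207 (P1) and 68809087 to 68809207 (P2) give their shares. The bases before both starts are shown (RefSeq promoters, GRCh38.p14, plus strand, 5′ to 3′), because the shares differed between the cell lines. The P1 stretch is chr12:68807922-68808171. The P2 stretch is chr12:68808767-68809001 and ends before the first annotated exon base. Capitals mark matches to the p53 response element, searched as a 20-base consensus (2 copies of the p53 decamer without a spacer, at most 3 mismatches, both strands at once because the element is palindromic).
MDM2 P1: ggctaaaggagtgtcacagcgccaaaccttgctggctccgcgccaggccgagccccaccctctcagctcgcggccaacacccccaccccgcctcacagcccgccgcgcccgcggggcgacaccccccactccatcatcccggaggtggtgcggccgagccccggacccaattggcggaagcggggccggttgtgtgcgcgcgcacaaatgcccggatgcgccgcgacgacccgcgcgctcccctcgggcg
MDM2 P2: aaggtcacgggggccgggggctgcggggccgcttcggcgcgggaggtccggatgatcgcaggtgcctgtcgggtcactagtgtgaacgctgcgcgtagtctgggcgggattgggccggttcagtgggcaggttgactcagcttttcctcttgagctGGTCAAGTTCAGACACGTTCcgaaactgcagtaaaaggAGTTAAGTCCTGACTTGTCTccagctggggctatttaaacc
The P2 stretch of MDM2 held 2 matches that do not overlap, at 68808923 to 68808942 with 2 mismatches and at 68808961 to 68808980 with 3 mismatches, and the P1 stretch held none. Of 35116 RefSeq promoters, 4.36% held a match with at most 3 mismatches and 0.561% one with at most 2, and 50 promoters held 2 matches that do not overlap. Of the 9 genes, 8 had promoters in the RefSeq table. FAS had 1 match with 2 mismatches (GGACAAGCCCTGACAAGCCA, chr10:88991309-88991328) and SESN1 1 with 3 mismatches (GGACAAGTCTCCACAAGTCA, chr6:109009018-109009037, minus strand). The windows of CDKN1A, BTG2, TP53I3, ZMAT3 and BBC3 held none, which says only that these letters are not in these 250 bases. A match is a description and not a measured binding site.

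The share of P2 among MDM2 first-exon reads was 54.97% in total A375 RNA (83 of 151 reads, 95% Wilson interval 47.0% to 62.7%). In HEK293 the P2 share of MDM2 was 31.9% (23 of 72, 22.3% to 43.4%), and in wild-type HUES66 it was 22.3% (39 of 175, 16.8% to 29.01%). The intervals of A375 lay above those of both other lines, and those of HEK293 and HUES66 overlapped. In CPM the P2 junction of MDM2 was 7.07-fold higher in A375 than in HUES66 (exact interval 4.78 to 10.6) and the P1 junction 1.66-fold (1.22 to 2.24). Between HEK293 and HUES66 the P2 ratio was 1.72 (0.978 to 2.94) and the P1 ratio 1.05. With 1 library per line these intervals cover counting error only. In the 14 doxycycline-treated libraries the MDM2 P2 share ranged from 18.9% to 34.3% (mean 25.2%, SD 4.35, n = 14). It was 28.6% ± 4.28 (SD, n = 4) at 48 hr and 25.5% ± 3.69 (SD, n = 4) at 96 hr, and 22.9% ± 4.23 and 22.6% ± 3.97 (SD, n = 3 each) in the 24 hr sets, all overlapping. By knockdown the share differed from control by 0.23 (SE 0.36), 0.25 (SE 0.34) and 0.25 (SE 0.34) on the log2 scale of the ratio of P2 to other reads in total, N-short and N-long KD. Reads that left the exon after this acceptor outnumbered those that entered it from P1 or P2, 391 to 151 in A375, 206 to 72 in HEK293 and 358 to 175 in wild-type HUES66. The shares describe the entering reads only, and the cause of the excess was not tested.

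**Figure D4:**
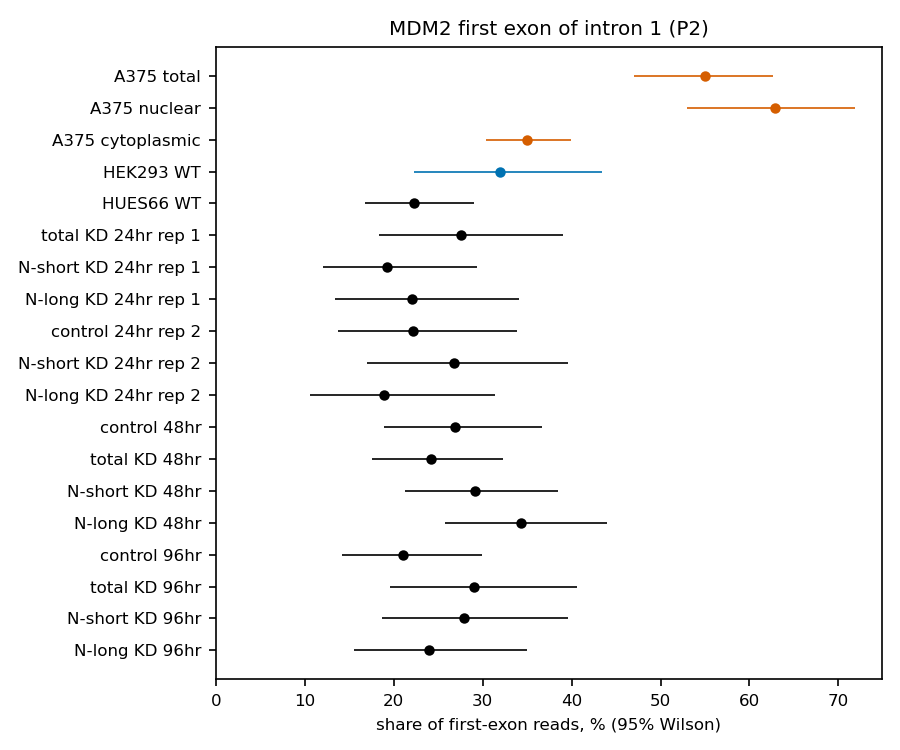
Share of the P2 first exon among reads from both MDM2 first exons (x axis, %) in 19 libraries (y axis; A375 orange, HEK293 blue, HUES66 black); bars are 95% Wilson intervals and cover counting error only. A375 total and nuclear RNA have the highest P2 shares (54.97% and 62.9%).

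An optional MDM2 exon of 87 nt (chromosome 12, 68814603 to 68814689) was at 3.40% in A375 (Wilson interval 1.96% to 5.85%), 6.63% in HEK293 (3.92% to 11.0%) and 2.27% in HUES66 (1.16% to 4.42%), with overlapping intervals. The exon of 134 nt at 68816812 to 68816945 was included at 97.9% in A375 (95.7% to 99.0%), 96.0% in HEK293 (92.2% to 97.9%) and 93.2% in HUES66 (89.9% to 95.4%). The intervals of total A375 RNA and wild-type HUES66 did not overlap for it. The doxycycline-treated HUES66 libraries ranged from 94.0% to 97.7%, up to the level of A375, and cytoplasmic A375 RNA was at 95.8%. A difference between the lines is therefore not shown for this exon. In FAS, the exon of 63 nt (chr10, 89010753 to 89010815) that encodes the membrane-spanning part was included at 97.1% in total A375 RNA, 93.02% in HEK293 and in 7 of 7 reads in HUES66.

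CDKN1A first exons could be compared only where the gene was abundant. The first exon of CDKN1A-201 (intron 36678799 to 36684096, chromosome 6) gave 88.4% of the reads into its acceptor in total A375 RNA (107 of 121), 83.6% in nuclear RNA (51 of 61), 89.8% in cytoplasmic RNA (504 of 561) and 80.5% in HEK293 (33 of 41). The first exon of CDKN1A-203 and CDKN1A-207 gave 8.26%, 13.1%, 8.20% and 9.76%. In wild-type HUES66 only 6 reads entered this acceptor of CDKN1A, 4 of them from the first exon of CDKN1A-201, and the doxycycline-treated libraries had 2 to 20, too few to compare.

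The third comparison set the lines side by side. A375 had 7 of the 9 genes higher than wild-type HUES66 by 2-fold or more and 0 lower, where 22.3% of all genes were higher by that fold and 45.1% differed by it in either direction. CDKN1A measured 58.0 CPM in A375, 21.0 CPM in HEK293 and 1.25 CPM in HUES66, a ratio of A375 to HUES66 of 46.3 (exact interval 32.8 to 67.3). FAS measured 46.0, 23.9 and 2.40 CPM in the same order, 19.2-fold higher in A375 (14.8 to 25.3), and BTG2 8.56, 3.75 and 0.859 CPM, 9.96-fold higher (6.20 to 16.5). The stem cell line was the lowest of 3 for these genes, and the 14 doxycycline-treated HUES66 libraries stayed below both other lines. ZMAT3 measured 31.1, 11.8 and 6.05 CPM (5.15-fold, 4.23 to 6.28), MDM2 403, 215 and 110 CPM (3.68-fold, 3.50 to 3.86) and BBC3 2.26, 1.77 and 0.931 CPM (2.43-fold, 1.27 to 4.56). ZMAT3 and BBC3 in HEK293 lay within the range of the doxycycline-treated HUES66 libraries, and BBC3 and RRM2B in A375 did too. RRM2B measured 81.9, 26.5 and 39.6 CPM, so HEK293 was the lowest, and its ratio of A375 to HUES66 was 2.07 (1.88 to 2.28). Against the mean of the 3 doxycycline-treated controls in place of wild-type HUES66, 5 of 9 genes were past 2-fold, where 45.4% of all genes were. RRM2B and BBC3 were then short of 2-fold (log2 ratios 0.46 and 0.59), and CDKN1A had a log2 ratio of 4.37 in place of 5.53.

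TP53I3 and SESN1 departed from the other 7. TP53I3 measured 31.0 CPM in A375, 7.08 CPM in HEK293 and 25.3 CPM in HUES66, so that HEK293 stood apart, 0.279 times HUES66 (0.215 to 0.359), and A375 was 4.38-fold higher than HEK293 (3.34 to 5.81). SESN1 measured 24.8, 34.98 and 24.3 CPM, with a ratio of A375 to HUES66 of 1.02 (0.871 to 1.20), and a log2 ratio of -0.40 with the doxycycline-treated controls as HUES66. HEK293 against HUES66 gave 3 genes higher by 2-fold or more (CDKN1A, FAS and BTG2) and 1 lower (TP53I3), where 20.0% and 20.1% of all genes were so, 40.1% together. With the doxycycline-treated controls as HUES66, HEK293 had 5 of 9 past 2-fold (39.8% of all genes): the same 4, and RRM2B, lower at a log2 ratio of -1.17. CDKN1A was then at 2.91 and TP53I3 at -1.57. A375 against HEK293 gave 5 higher and 0 lower (19.3% of all genes were higher). The median ratio of the 9 genes was 3.68 for A375 to HUES66, 1.95 for HEK293 to HUES66 and 2.27 for A375 to HEK293, beside 0.994, 1.07 and 0.931 over all genes. Scaling by TMM factors moved the log2 ratios by -0.05 (A375 to HUES66), -0.16 (HEK293 to HUES66) and 0.11 (A375 to HEK293). RRM2B was then short of 2-fold between A375 and HUES66 (log2 ratio 0.995), SESN1 there turned to -0.02, and MDM2 (1.02) and FAS (1.05) passed 2-fold between A375 and HEK293.

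**Figure D5:**
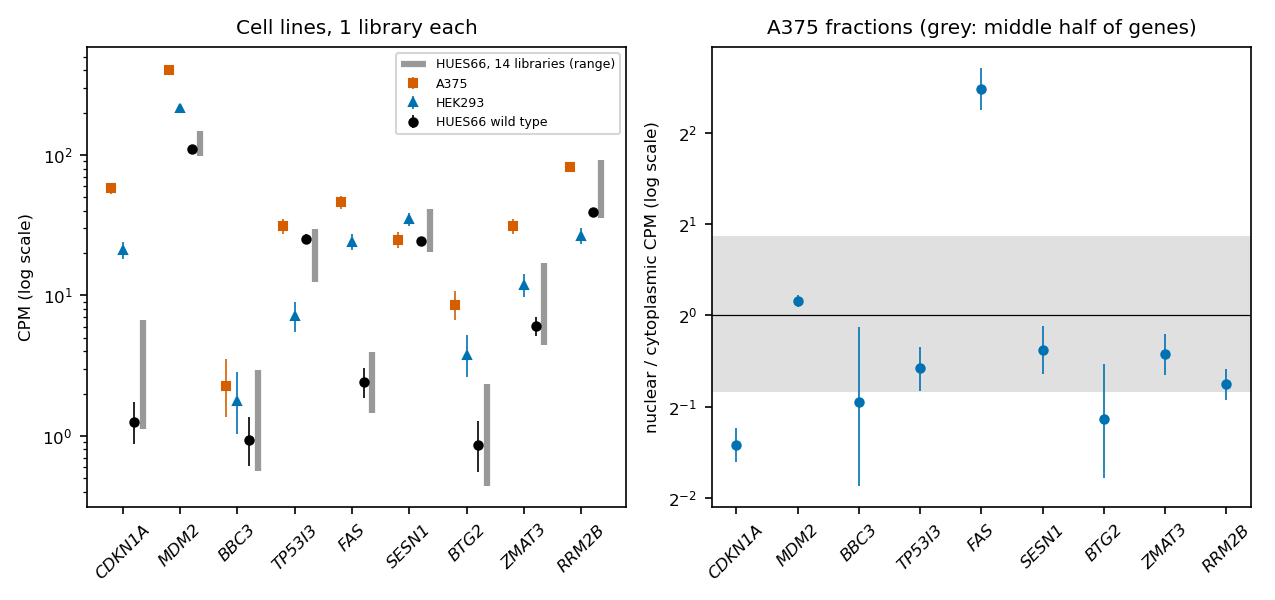
Left, level of the 9 genes (y axis, CPM, log scale) in 1 library each of A375, HEK293 and wild-type HUES66 with 95% exact Poisson intervals, and the range of 14 doxycycline-treated HUES66 libraries (grey bars). Right, ratio of nuclear to cytoplasmic CPM in A375 (log scale) with exact intervals for counting error, the grey band being the interquartile range of all genes. CDKN1A, FAS and BTG2 lie above all HUES66 libraries in both other lines, and FAS alone lies above the band at right.

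In A375 the nuclear and cytoplasmic RNA differed by 2-fold or more in 3 of the 9 genes, where 42.0% of all genes did (22.7% higher and 19.3% lower in the nucleus). FAS measured 63.7 CPM in nuclear and 11.4 CPM in cytoplasmic RNA, a ratio of 5.58 (4.76 to 6.55). All 8 introns of FAS that had at least 20 reads (nuclear plus cytoplasmic) had more CPM in the nuclear RNA, with ratios from 4.32 to 8.13 from intron to intron. CDKN1A was the lowest at a ratio of 0.373 (0.327 to 0.424), from 40.6 CPM in nuclear and 109 CPM in cytoplasmic RNA, and all 3 of its introns with enough reads were lower in the nuclear RNA (0.348 to 0.598). BTG2 measured 4.00 and 8.77 CPM, a ratio of 0.456 (0.291 to 0.689). BBC3 (0.518), RRM2B (0.591), TP53I3 (0.669), ZMAT3 (0.744) and SESN1 (0.770) had ratios below the median of 0.925 over all genes, and MDM2, at 376 and 338 CPM, had 1.11 (1.06 to 1.16). The MDM2 junctions spread from 0.497 for P1 to 1.57 for P2, so the P2 share was 62.9% in nuclear (52.95% to 71.8%) and 34.99% in cytoplasmic RNA (30.4% to 39.9%), intervals that did not overlap. Set against total A375 RNA the cytoplasmic level of FAS was 0.248 times (0.211 to 0.291) and that of CDKN1A 1.88 times. FAS was then the 1 gene of 9 past 2-fold (23.5% of all genes were).

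Over the 14 doxycycline-treated libraries, after the mean of each library set was removed, the genes most like CDKN1A by Pearson correlation of log2 CPM were ACTN3 (0.919), RPS3 (0.899) and N4BP2 (0.892), among 9777 genes at a mean of 5 CPM or more. Those most like MDM2 were DRAM2 (0.919), AP1S2 (0.914) and USP31 (0.905). They are the highest of many correlations over 14 points that share libraries and their depth, with 13 to 91 reads per library behind CDKN1A, and are given as a description.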

How the data were processed

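The deposited junction files hold raw counts of spliced reads per intron, 1 table per library; STAR 2.7.1, SAMtools 1.9 and hg38 are named in the submitters' processing notes. Libraries were made with a kit that removes ribosomal RNA, per the labels. The authors' rMATS tables give p-values and adjusted p-values per event, per the file headers, beside an inclusion difference on a scale of its own (another unit than counts); they were used for member events only. The 69 per-library columns of those tables were not used here. For each gene, reads were added up over GENCODE 29 introns of that gene name alone. Genes, junctions, shares of junctions into an acceptor and cassette exons up to 1000 nt (a mean of at least 20 reads, 2% to 98% pooled) were fitted over 14 libraries (terms for library set and knockdown) by the quasi-likelihood F-test of edgeR 4.0.16, with TMM factors and filterByExpr, in R 4.3.3, and time over 8 libraries (knockdown and time), with Benjamini-Hochberg adjustment over all features and a threshold of 0.05. All adjusted p-values in the text come from these fits unless named as the authors'. With 1 library per group, exact Poisson, exact ratio or 95% Wilson intervals and a 2-fold rule were used, for genes with at least 20 reads in the pair, and no test. The library sets pair the libraries: after removal of knockdown means, libraries of the same set correlated with a median r of 0.755 (18 pairs, 0.558 to 0.887) and of different sets -0.36 (73 pairs). On simulated counts with 200 genes changed by 1 on the log2 scale, 96.5% (total KD), 98.5% (N-short KD), 99% (N-long KD) and 98% (96 against 48 hr) were recovered. The simulation used a fixed dispersion and no differences between library sets. Its changed genes were drawn above a floor of mean reads that CDKN1A, BTG2, BBC3 and FAS did not reach, so the recovery does not apply to those genes. DESeq2 1.42.0, limma 3.58.1, Python 3.11.15, pandas 2.3.3 and scipy 1.17.1 were also used. The wild-type HUES66 library carries the control name of the 24 hr replicate 1 series and entered the fits as an alternative only. The members and all gene lists were chosen with earlier results of these data known. Named genes are the 9 members, up to 8 called genes per list by smallest p, and for likeness the 3 highest correlations. The level of 1 gene and the inclusion of 1 exon are not reported here.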

Additional observations from a re-analysis of the deposited data

Results flagged for a closer look

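CDKN1A in the N-short KD libraries was flagged because the 48 hr library, at 5.86 CPM, stood far from the other 3, at 1.15 to 1.83 CPM (the gap to the nearest was 0.855 of the range). The 4 libraries are of different times, and CDKN1A was high in every 48 hr library; of 18 groups checked in this way, chance flags about 1 in 20.

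Reads on introns that GENCODE 29 does not hold were not part of the gene sums. CDKN1A had 8 such reads at 36676571 to 36684096 of chromosome 6 in cytoplasmic A375 RNA, against at most 1 in a control library. MDM2 had 12 at 68839802 to 68841831 of chromosome 12 (at most 2 in a control), BBC3 10 at 47226755 to 47230928 of chromosome 19 (at most 3) and RRM2B 8 at 102205960 to 102208094 of chromosome 8 (at most 3), all in cytoplasmic A375 RNA, one of the deepest libraries. SESN1 had 4 at 109030707 to 109030757 of chromosome 6 in HEK293 and 0 in controls. TP53I3 had 7 at 24077859 to 24079443 of chromosome 2 in N-short KD at 24 hr (replicate 1), and the deeper wild-type HUES66 library, whose description carries the control name, had 11. These counts are not scaled to depth.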

How the results depend on the processing

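The 96 against 48 hr changes of the members kept their direction and their side of the threshold in every alternative except for BBC3, which passed in 3 (no filter, and without the total KD library of 48 hr or of 96 hr). Low counts limit CDKN1A, BTG2, BBC3 and FAS, 1 library per line or fraction limits those comparisons to counting error, and no total KD library shares the 24 hr replicate 2 set with a control. Where a value below changed side or sign, the cause was not tested.

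The library sets pair the libraries, and a fit with no replicate block (time alone) called 62 of all genes in total KD in place of 300, 40 in total against N-long KD in place of 274, 0 in N-long KD in place of 3 and 0 in N-long against N-short KD in place of 2. No member was called with or without the block, and the block changed no other call of a member; TP53I3 had log2 changes of 0.0528 (N-short KD) and 0.0515 (total against N-long KD), and SESN1 -0.0799 (total against N-long KD), without it.

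With no filter on low counts the calls were 4 (N-short KD), 16 (N-long KD) and 17 (N-long against N-short KD) of all genes, and 1 member, ZMAT3, was called in total KD and in total against N-long KD. BTG2 had 0.00315 in N-long KD and SESN1 -0.00102 in total against N-long KD in that setting. With wild-type HUES66 as a control of 24 hr replicate 1, 536 of all genes, 1 member and 1 member junction were called in total KD and 1 gene in N-short KD. TP53I3 (0.0194) and the MDM2 P2 junction (-0.00743) in N-short KD, BBC3 (0.00101) in N-long KD and SESN1 (-0.00296) in total against N-long KD changed sign. With reference transcripts 2 genes were called in N-short KD, 4 for N-long against N-short KD, and BTG2 (0.000223) and BBC3 (0.0651) changed sign in N-long KD. DESeq2 size factors called 1 gene in N-short KD and gave TP53I3 -0.00285 in total KD, and DESeq2 itself called 1 gene in N-long KD. Cytoplasmic against total A375 RNA gave 1 member past 2-fold in place of 3.

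Leaving out 1 library at a time gave 162 to 333 calls of all genes in total KD, 1 to 4 in N-long KD, 0 to 2 in N-short KD, 1 to 3 for N-long against N-short KD and 149 to 247 in total against N-long KD. Members called ranged from 0 to 1 in total KD and in total against N-long KD (ZMAT3), and member junctions from 0 to 1 in total, N-short and N-long KD and in total against N-long KD. Member values that changed sign when 1 library was left out had these ranges of log2 change. In total KD they were -0.0725 to 0.977 for BBC3, -0.0586 to 0.678 for CDKN1A, -0.190 to 0.0394 for SESN1, -0.0167 to 0.0229 for TP53I3, -0.315 to 0.0989 for the MDM2 P1 junction and -0.0519 to 5.70 for the MDM2-214 junction. In N-short KD they were -0.256 to 0.726 for BBC3, -0.395 to 0.260 for BTG2, -0.0651 to 0.308 for CDKN1A, -0.658 to 0.0579 for FAS, -0.109 to 0.0341 for SESN1, -0.0752 to 0.0295 for TP53I3, -0.203 to 0.00909 for ZMAT3 and -0.264 to 0.0431 for the MDM2 P1 junction. In N-long KD they were -0.385 to 0.622 for BBC3, -0.332 to 0.375 for BTG2, -0.0628 to 0.387 for FAS, -0.0551 to 0.0711 for TP53I3, -0.349 to 0.0409 for the MDM2 P2 junction and -0.0304 to 0.395 for the MDM2 P2 share. In N-long against N-short KD they were -0.407 to 0.135 for BBC3, -0.131 to 0.384 for BTG2, -0.0334 to 0.113 for RRM2B, -0.140 to 0.00218 for SESN1, -0.0131 to 0.131 for TP53I3 and -0.0670 to 0.117 for ZMAT3. In total against N-long KD they were -0.407 to 0.279 for CDKN1A, -0.103 to 0.104 for SESN1 and -0.112 to 0.0214 for TP53I3.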
